A study of Mus musculus with 2 samples.

Results

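The genes described here are 10 genes of the heart muscle cell, chosen by symbol from the GENCODE M21 annotation of the mouse, in which they make up 10 of 21938 protein-coding genes. They are Tnni3, Tnnt2, Mybpc3, Myh6, Myh7, Actc1 and Myl7 of the contractile apparatus, Ryr2 and Pln of calcium handling, and the transcription factor gene Nkx2-5. All were matched by symbol, a rule that uses no threshold on a measured value. Their chromatin was examined in lung, not in heart. DNase-seq, which sequences the ends left where the enzyme DNase I cuts accessible DNA, was applied to lung tissue of the B6CASTF1/J hybrid from males at 14 days of age, with no treatment named. There was 1 group of 2 libraries, biological replicates 1 and 2. Replicate 2 was pooled from 3 males, and for replicate 1 the labels give the sex but name no pool. Because a single donor record covers both libraries, they may or may not share animals, and agreement between them may be technical. With 1 group there was no contrast, and each value below is given for both libraries.

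Cardiac muscle contracts by sliding of thick myosin filaments along thin actin filaments. The thin filament is switched on when calcium binds the troponin complex, and that calcium is released from the sarcoplasmic reticulum through the ryanodine receptor and pumped back by a calcium ATPase that phospholamban restrains. In the mouse a sleeve of cardiac muscle extends from the left atrium along the pulmonary veins into the lung, so lung tissue can hold some cardiomyocytes beside its epithelial, vascular, stromal and immune cells. In bulk tissue, accessibility in few cells and weak accessibility in many cells cannot be told apart.

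Replicate 1 held 94786 peaks (accessible sites) and replicate 2 held 77403, with 326313 and 252174 footprints, which are short stretches protected from cutting. The read depth is unknown. A promoter peak was one within 1 kb of any annotated 5′ end of the gene. Every other peak over the gene body or within 50 kb on either side was counted as another peak of that gene. Peak scores are the authors' own signal values and were ranked only within their library. A percentile of 60 thus means that 60% of the peaks of that library scored no higher. All positions are on mm10 (GRCm38), and the sequences are those of the reference strain, not of the hybrid animals.

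A promoter peak was present at 2 of the 10 genes, Tnni3 and Ryr2, and these were the same genes in replicate 1 and replicate 2. That is 20% of the genes in each library. Over all protein-coding genes the shares were 66.6% in replicate 1, 64.1% in replicate 2 and 63.6% in both. The other 8 genes (Tnnt2, Mybpc3, Myh6, Myh7, Actc1, Myl7, Pln and Nkx2-5) lacked a promoter peak in both libraries, as did 32.8% of all protein-coding genes. A less strict measure gave nearly the same list. The deposited per-base files list bases whose cutting rate passed a false discovery rate of 0.05, called significant bases here, and 71.4% of all genes in replicate 1 and 69.2% in replicate 2 had such a base in the promoter window. Among the 10 genes only Tnni3 and Ryr2 had one in both libraries, and Myh7 had one in replicate 1. At a false discovery rate of 0.001, Tnni3 and Ryr2 were left in each library, 2 of 10, beside 67.1% and 64.8% of all genes. The remaining 7 genes had 0 such bases in both libraries, against a median over all protein-coding genes of 763 and 628 bases.

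**Figure D1:**
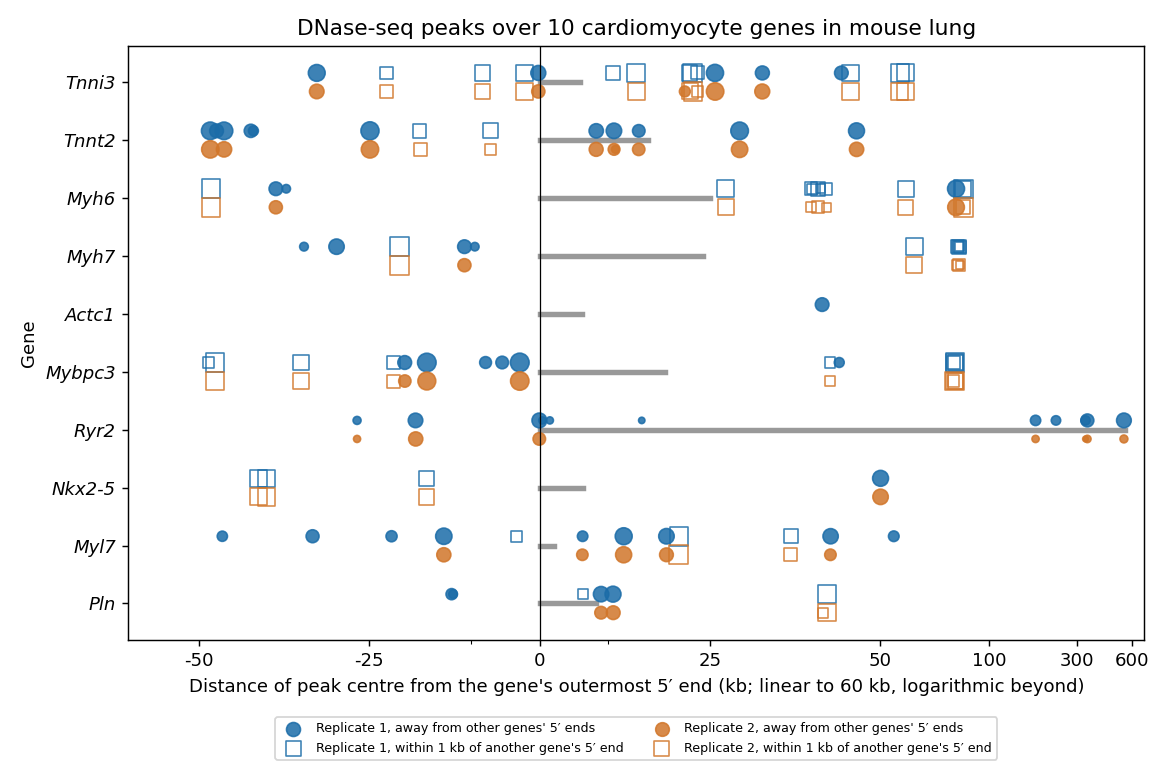
Peaks over the 10 genes, by distance of the peak centre from the outermost annotated 5′ end (x axis, kb, negative is upstream; linear to 60 kb and logarithmic beyond), with 1 row per gene and the gene body as a grey bar. Marker area grows with the score percentile of the peak in its library, blue is replicate 1, orange is replicate 2, and open squares lie within 1 kb of a 5′ end of another gene. Only Tnni3 and Ryr2 have markers at 0 kb, Myh6 and Myh7 have none over the gene body, and Actc1 has a single marker from replicate 1.

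Tnni3 encodes cardiac troponin I, the inhibitory subunit of the troponin complex (ENSMUSG00000035458.15, chr7:4518305-4524229, minus strand). Its promoter peak lay at chr7:4524321-4524500 in replicate 1, with a score of 1.60, and at chr7:4524345-4524475 in replicate 2, with a score of 1.22. These scores stood at the 60.5 and 45.5 percentile of all peaks in their libraries. Both peaks were thus well under the strongest promoter peak of the typical gene that has one, whose median percentile was 89.9 in replicate 1 and 89.7 in replicate 2. Among promoter peaks alone the Tnni3 peak ranked at the 41.8 and 27.6 percentile. The lowest false discovery rate in the promoter window, in the deposited per-base files, was 1.74e-08 in replicate 1 and 2.71e-05 in replicate 2.

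The place of this peak matters for what it can be called. It lay 92 bp upstream of the outermost of 8 annotated 5′ ends of Tnni3 in replicate 1 and 116 bp upstream in replicate 2, and within an intron of the neighbouring gene Dnaaf3, which encodes an assembly factor of ciliary dynein arms. The RefSeq start of Tnni3, at position 4522528, was 1793 bp from the nearest peak in replicate 1 and 1817 bp in replicate 2, so no peak lay within 1 kb of that start. The peak held 3 footprints in replicate 1 and 2 in replicate 2. The sequence of the peak is shown because it holds the protected bases that both libraries share at a Tnni3 5′ end. Capitals mark the 30 bases inside a footprint in both libraries (GRCm38, chr7:4524311-4524510, minus strand).
Tnni3 upstream peak: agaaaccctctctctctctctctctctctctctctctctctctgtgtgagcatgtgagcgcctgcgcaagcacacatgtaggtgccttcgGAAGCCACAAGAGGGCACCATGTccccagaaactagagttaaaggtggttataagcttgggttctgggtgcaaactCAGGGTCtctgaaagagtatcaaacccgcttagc
The longer capital run contains a match to the core consensus of CTCF, a zinc-finger protein known for its role at chromatin loop boundaries and insulators. This consensus was searched after the sequences had been seen. The dinucleotide repeat at the left end is part of the 30% of these 200 bases that the reference marks as repeats, against a mean of 9.27% over all peaks of replicate 1.

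Ryr2 encodes the cardiac ryanodine receptor (ENSMUSG00000021313.16, chr13:11553102-12106945, minus strand) and spans 553.8 kb. It was the only gene of the 10 with a peak over its RefSeq start. The peak lay at chr13:12106881-12107060 in replicate 1, with a score of 1.54, and at chr13:12106881-12107080 in replicate 2, with a score of 1.09. These were the 59.2 and 40.0 percentile of all peaks and the 40.7 and 23.6 percentile of promoter peaks, again under the median gene with a promoter peak. Replicate 1 had 2 further promoter peaks, at chr13:12106507-12106576 and chr13:12105383-12105480, both at the 7.91 percentile, without a footprint and without a partner in replicate 2. The lowest false discovery rate in the deposited per-base files was 3.67e-17 in replicate 1 and 6.32e-11 in replicate 2. The start-covering peak held 3 footprints in replicate 1 and 2 in replicate 2, of which 1 was shared. The 135 bases just upstream of the start are shown because they hold that shared footprint, whose 12 common bases are in capitals (GRCm38, chr13:12106946-12107080, minus strand).
Ryr2 start, upstream side: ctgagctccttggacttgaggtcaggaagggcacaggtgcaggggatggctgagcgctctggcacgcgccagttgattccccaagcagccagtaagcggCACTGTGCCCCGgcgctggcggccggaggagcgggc
In contrast to the Tnni3 window, the window of the Ryr2 peak was rich in G and C (72% against 51.5% of 200 bases) and had 16 CpG sites against 4.

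**Figure D2:**
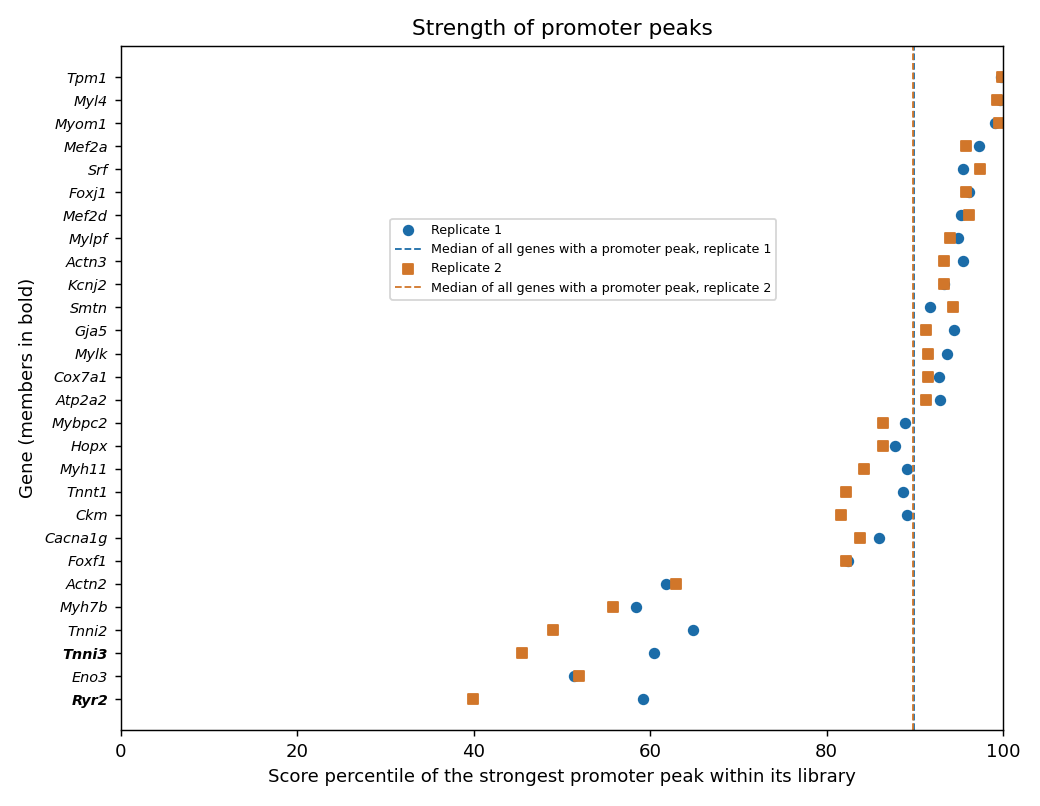
Score percentile of the strongest promoter peak within its library (x axis, percent) for Tnni3 and Ryr2, in bold, and for up to 3 genes of each comparison list, those ranking highest among its genes with a promoter peak in both libraries (y axis), with circles for replicate 1 and squares for replicate 2. Dashed lines are the medians over all protein-coding genes with a promoter peak, 89.9 and 89.7; both heart genes lie far to the left of them.

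Promoters with more CpG carried a peak more often in these libraries, and the 10 genes fell into 2 CpG classes. The ratio of observed to expected CpG was taken over the 1 kb centred on the outermost 5′ end. Of protein-coding genes with a ratio under 0.4, 29.4% had a promoter peak in replicate 1 and 26.9% in replicate 2. Between 0.4 and 0.6 the shares were 78.5% and 74.3%, and over 0.6 they were 95.4% and 93.5%. The median ratio of the 10 genes was 0.198, against 0.553 over all genes. Of the 10, 8 lay under 0.4, from 0.100 for Myh6 to 0.362 for Tnni3, and 1 of these 8 had a promoter peak. A share of 1 in 8 stood beside backgrounds of 29.4% and 26.9%, and with so few genes no difference from this class can be read.

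The other 2 genes were CpG-rich, Ryr2 at 0.726 and Nkx2-5 at 0.616, and they differed from each other. Ryr2 had the weak peak described above. Nkx2-5 encodes a homeodomain transcription factor that acts early in heart formation (ENSMUSG00000015579.5, chr17:26838664-26845009, minus strand), and it had no promoter peak and 0 significant bases in both libraries. Its nearest peak was 16472 bp from any of its annotated 5′ ends in replicate 1 and in replicate 2. At the RefSeq start of Nkx2-5, position 26841565, the CpG ratio was 0.592, just under the limit of the CpG-rich class.

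**Figure D3:**
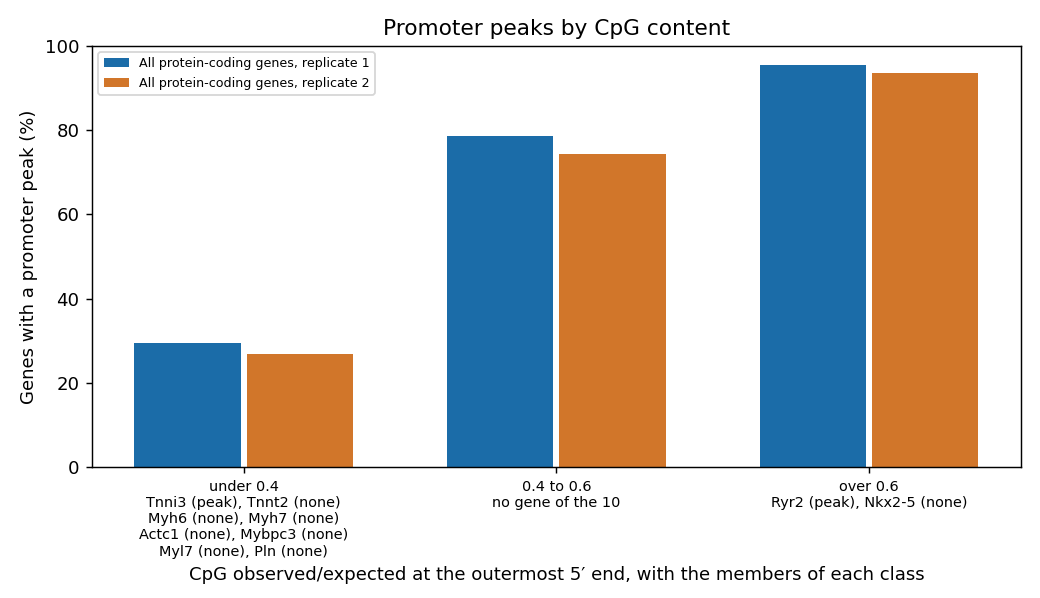
Share of all protein-coding genes with a promoter peak (y axis, percent) by the ratio of observed to expected CpG at the outermost 5′ end (x axis), with bars for replicate 1 (blue) and replicate 2 (orange). The 10 heart genes are written under their class with or without a peak; Nkx2-5 stands without one in a class where 95.4% and 93.5% of genes have one.

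Tnnt2 encodes cardiac troponin T, which ties the troponin complex to tropomyosin (ENSMUSG00000026414.13, chr1:135836354-135852260, plus strand). It had no promoter peak, but it was the only gene beside Ryr2 with peaks of both libraries inside the gene body. Of these inner peaks, 3 were shared. The first, at chr1:135844581-135844780 in replicate 1, stood at the 55.1 percentile there and at 51.2 in replicate 2. The second, at chr1:135847181-135847380, stood at 65.4 and 34.2, and the third, at chr1:135850841-135851020, at 40.1 and 38.9. The second lay 2070 bp and the third 1391 bp from the same inner 5′ end, that of a transcript annotated as retained intron. A promoter window of 2500 bp would therefore add Tnnt2 to the genes with a promoter peak, in both libraries.
The first inner peak is shown because its shared footprint covers a match to the AP-1 consensus TGANTCA, the site of Fos and Jun dimers (capitals are the 18 bases within a footprint in both libraries; GRCm38, chr1:135844581-135844780, plus strand).
Tnnt2 inner peak: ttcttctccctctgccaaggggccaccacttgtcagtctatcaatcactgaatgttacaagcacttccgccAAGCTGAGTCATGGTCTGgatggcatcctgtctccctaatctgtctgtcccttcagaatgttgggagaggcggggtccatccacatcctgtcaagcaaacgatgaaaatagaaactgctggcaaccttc
On both strands, 8.47% of all peaks away from 5′ ends in replicate 1 and 8.49% in replicate 2 held an AP-1 match in the central 200 bp. Outside the gene, the strongest Tnnt2 peak of replicate 1 was chr1:135811361-135811540, between genes 24814 bp upstream, at 92.6, and in replicate 2 it stood at 84.3. Further upstream, shared peaks lay in introns of Tnni1, which encodes slow skeletal troponin I.

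Mybpc3 encodes cardiac myosin-binding protein C, which steadies the thick filament (ENSMUSG00000002100.15, chr2:91118144-91136516, plus strand). No peak lay within the gene in either library, yet the strongest peak of any of the 10 windows in replicate 1 was only 2824 bp upstream of its 5′ end. It lay at chr2:91115161-91115320 in both libraries, at the 99.6 percentile in replicate 1 and 95.9 in replicate 2. Its centre fell in a coding exon of Spi1, the gene of the transcription factor PU.1 of myeloid and B cells. A second strong peak, chr2:91101501-91101680, at 97.6 and 89.8, lay in a Spi1 intron. Of the other peaks of Mybpc3, 9 of 15 in replicate 1 and 8 of 11 in replicate 2 lay within 1 kb of a 5′ end of another gene. A tally over the window of Mybpc3 therefore counted mainly the sites of Spi1, Slc39a13 and Madd.

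Myh6 and Myh7 encode the alpha and beta myosin heavy chains, the motor proteins of the thick filament, and lie head to tail on chromosome 14 (Myh6, ENSMUSG00000040752.16, chr14:54941921-54966927; Myh7, ENSMUSG00000053093.16, chr14:54970684-54994626; both on the minus strand). Neither gene had a peak within 1 kb of a 5′ end or anywhere in its body, in either library. The stretch without a peak that covers both genes ran from 54939681 to 55004052, or 64.4 kb, in replicate 1 and to 55005605, or 65.9 kb, in replicate 2. The larger, less strict peak file of replicate 1 placed 1 peak inside it, chr14:54993741-54993937, 50 bp from an inner 5′ end of Myh7. That peak scored 0.417, at the 23.6 percentile of that file, and the larger file of replicate 2 had none there. The Myh7 promoter window held 215 significant bases in replicate 1, with a lowest false discovery rate of 0.00101, and 0 in replicate 2. It was a site of 1 library under the looser threshold and of no library under the stricter one.

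The windows of these 2 genes overlap and shared 9 peaks in replicate 1 and 6 in replicate 2, so their counts (13 and 10 for Myh6, 11 and 6 for Myh7) are not independent. The strongest peak of both windows was the Ngdn promoter at chr14:55015061-55015260, at 98.6 and 99.1. It was followed, in the Myh6 window only, by the Pabpn1 promoter at 95.1 and 98.2. Away from other genes' 5′ ends, Myh6 had 2 shared peaks. One of them, chr14:54900501-54900700, stood at 80.7 and 77.4. The other was upstream of Myh7 and was also its only one, at chr14:55005578-55005730 in replicate 1 and chr14:55005606-55005709 in replicate 2, at 49.0 and 44.7.

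Actc1 encodes cardiac alpha-actin, the main thin-filament protein (ENSMUSG00000068614.7, chr2:114047282-114053548, minus strand). It had the emptiest window of the 10. Replicate 1 had 1 peak, chr2:114011961-114012120, in an intron of Gjd2 at the 49.0 percentile, with no partner, and replicate 2 had 0. By comparison, 86.6% of all genes in replicate 1 and 85.2% in replicate 2 had at least 1 other peak in the same kind of window. The peak-free stretch around Actc1 measured 133.5 kb in replicate 1 and 296.5 kb in replicate 2. In the larger peak files it measured 45.2 kb in both libraries. A peak ended at position 114012120 in both of those files, so replicate 2 also had a peak at that site under the looser threshold.

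Myl7 encodes the atrial regulatory myosin light chain and is a marker of atrial muscle (ENSMUSG00000020469.8, chr11:5896637-5898782, minus strand). Its window held 12 other peaks in replicate 1 and 7 in replicate 2, all 7 of them shared, and none within the gene. The strongest was the promoter of Pold2, a DNA polymerase delta subunit, at 97.5 and 98.5. The nearest shared peak lay downstream, 6282 bp from the 5′ end in replicate 1 and 6212 bp in replicate 2, at only 25.7 and 31.9. The site at chr11:5886341-5886500 in replicate 1, between genes and 12282 bp from the 5′ end, stood higher, at 80.2 and 71.3.

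Pln encodes phospholamban, the inhibitor of the calcium pump (ENSMUSG00000038583.13, chr10:53337667-53345987, plus strand). Its window held 6 other peaks in replicate 1 and 4 in replicate 2. The nearest shared site was chr10:53346641-53346780, 8936 bp from the 5′ end and at 64.6 and 41.0. The next began at 53348381 in replicate 1, at 70.0 and 49.7. Both were in the transcribed region of Cep85l, a centrosomal protein gene in which Pln lies, and the strongest peak of the window was the Cep85l promoter at 90.0 and 87.0. The window of Nkx2-5 held 4 other peaks in each library, all shared. Of these, 3 were at 5′ ends of Gm20468 or Gm17382, and the fourth, chr17:26794841-26795000, lay between genes at 69.6 and 65.0.

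Other peaks were not scarce in most of the 10 windows, and 9 of the 10 genes had at least 1 in both libraries, beside 84.8% of all genes. Per 100 kb of window they had a median of 9.64 in replicate 1 and 5.85 in replicate 2, above the medians of 5.27 and 4.29 over all protein-coding genes. The genes ranged widely: Tnni3 had 14.2 and 13.2 per 100 kb, whereas Ryr2 had 1.22 and 0.918 and Actc1 had 0.941 and 0. Tnni3 and Ryr2, the only genes with a promoter peak in both libraries, were thus near opposite ends for other peaks per 100 kb. By number, Tnni3 had 15 and 14 in a window of 105.9 kb, and Ryr2 had 8 and 6 in 653.8 kb. Away from other genes' 5′ ends the order was reversed, with 4 and 4 for Tnni3 and 8 and 6 for Ryr2.

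**Figure D4:**
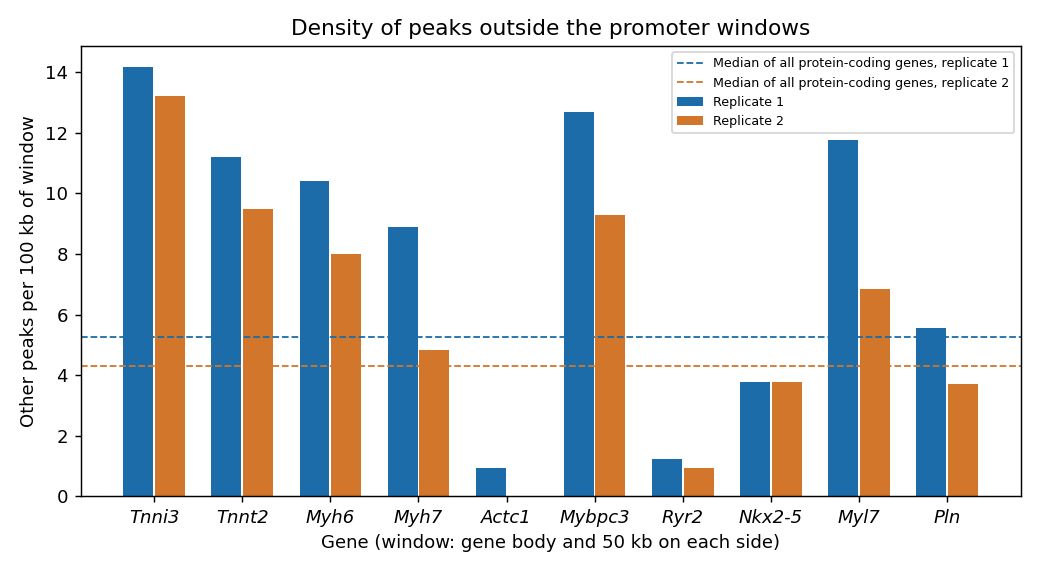
Peaks outside the promoter windows per 100 kb of gene body and 50 kb on each side (y axis) for each of the 10 genes (x axis), in replicate 1 (blue) and replicate 2 (orange). Dashed lines are the medians of all protein-coding genes, 5.27 and 4.29; Tnni3 is highest and Actc1 lowest in both libraries.

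Part of that count lay at the starts of neighbouring genes. Counting each peak once, the 10 windows held 89 other peaks in replicate 1 and 67 in replicate 2. Of these, 40 and 35 lay within 1 kb of a 5′ end of another gene, with a median percentile of 65.6 and 68.2. That is 44.9% and 52.2%, beside 34.6% and 35.5% of all peaks that lay within 1 kb of any 5′ end. The 49 and 32 that lay away from other 5′ ends had medians of 49.96 and 50.4. When only peaks overlapping the gene bodies were counted, 2 of the 10 genes, Tnnt2 and Ryr2, had one in both libraries, beside 37.3% of all protein-coding genes. Inside and upstream of Ryr2 the other peaks were few and weak. There were 8 in replicate 1, between the 4.58 and 58.4 percentile, and 6 in replicate 2, between 2.00 and 53.5, and none was at another gene's 5′ end. The one 18136 bp upstream of the start, chr13:12125081-12125240 in replicate 1, stood at 56.8 and 53.5.

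The libraries mostly shared these sites. Of 93 distinct peaks over the 10 windows in replicate 1, 66 (71.0%) overlapped a peak of replicate 2 by at least 1 bp, beside 73.6% of all its peaks. Of 69 in replicate 2, 66 (95.7%) overlapped one of replicate 1, beside 89.8%. Peaks of the 10 windows held 235 footprints in replicate 1 and 157 in replicate 2. The other peaks had 1.43 and 1.28 footprints per 100 bp, beside 1.30 and 1.26 over all peaks.

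The core consensus of CTCF recurred at the shared sites away from other 5′ ends. Of 30 such peaks, 14 (46.7%) held a match in the central 200 bp on either strand, whereas 15.6% of all peaks away from 5′ ends with a partner did so in each library. At all 14 the match met a footprint in both libraries. How often a match met one over all peaks was not computed, so this count has no background beside it. The consensus was chosen after these sequences had been seen, 6 of the 14 belonged to the Tnnt2 window, and no test was made. The 4 matches below, with the upstream Tnni3 peak for comparison, show the consensus in capitals with its flanks, each read on the strand of the match (GRCm38).
Tnni3, chr7:4524391-4524430, minus strand: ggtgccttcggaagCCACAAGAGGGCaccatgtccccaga
Tnnt2, chr1:135811436-135811475, plus strand: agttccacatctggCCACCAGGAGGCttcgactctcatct
Mybpc3 (in Spi1), chr2:91115242-91115281, plus strand: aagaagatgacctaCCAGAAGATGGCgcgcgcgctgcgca
Nkx2-5, chr17:26794910-26794949, plus strand: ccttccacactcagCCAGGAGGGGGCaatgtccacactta
Pln (in Cep85l), chr10:53346670-53346709, plus strand: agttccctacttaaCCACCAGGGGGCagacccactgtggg
These 4 sites include the strongest peak of the Tnnt2 window in replicate 1, the peak closest to the Mybpc3 5′ end, the only shared peak of Nkx2-5 away from other genes and the nearest shared peak of Pln.

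Letters known from heart muscle promoters were present at starts that had no peak. RefSeq promoters of 300 bp, from 250 before to 50 after the start, were matched for all 10 genes. The CArG box, the site of serum response factor, was found at Actc1 and Myl7 and in 1.63% of all RefSeq promoters of this length. The MEF2 consensus was found at Mybpc3 and in 3.19% of all. Both were searched on both strands. The stretches upstream of these starts are shown with the matching letters in capitals, which at Myl7 also cover the TEAD consensus GGAATG on the opposite strand (GRCm38).
Actc1, chr2:114052888-114052975, minus strand: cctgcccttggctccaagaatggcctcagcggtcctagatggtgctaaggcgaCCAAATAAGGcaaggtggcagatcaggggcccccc
Myl7, chr11:5898783-5898882, minus strand: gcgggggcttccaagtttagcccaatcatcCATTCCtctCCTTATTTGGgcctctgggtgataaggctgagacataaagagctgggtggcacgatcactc
Mybpc3, chr2:91118044-91118143, plus strand: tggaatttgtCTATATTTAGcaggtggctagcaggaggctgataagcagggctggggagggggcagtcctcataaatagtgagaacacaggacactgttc
No peak of either library lay within 1 kb of these 3 starts. The other consensus sequences searched on both strands were AGATAA for GATA factors, NKX2 (TNAAGTG), T-box (AGGTGTG), TEAD (GGAATG), AP-1 (TGANTCA), ETS (CCGGAAG) and the NFI half-site (TTGGCA). TEAD letters were found at Tnnt2, Myh6, Myh7 and Myl7 and in 14.7% of all RefSeq promoters, and GATA letters at Tnnt2 and Pln and in 11.2%. NKX2 letters were found at Myh7 alone and in 11.5% of all RefSeq promoters, T-box letters at Tnni3 alone and in 5.84%, and the NFI half-site at Tnnt2 and Actc1 and in 14.1%. The RefSeq promoter of Ryr2, the only one of the 10 genes that overlapped a peak, held a match to none of these 9, and neither did that of Nkx2-5.

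The 10 genes were set beside other genes of heart muscle and of tissues that share its proteins, in lists that have some genes in common. Other sarcomere and Z-disc genes had a promoter peak at 7 of 13 in each library. Tpm1 (tropomyosin), at the 99.7 and 99.9 percentile, and Myom1 (myomesin) had strong peaks, while Ankrd1 and Csrp3 had none. Calcium handling and conduction genes had one at 9 of 11 in replicate 1 and 8 of 11 in replicate 2. Among them was Atp2a2, the calcium pump on which phospholamban acts, at 92.8 and 91.3, whereas Casq2 and Trdn, partners of the ryanodine receptor in the sarcoplasmic reticulum, had none. These shares stand on both sides of the 66.6% and 64.1% of all protein-coding genes.

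Genes known from atrial and pulmonary-vein muscle had a promoter peak at 2 of 7 in each library. Myl4, the atrial essential light chain, stood at 99.6 and 99.3, whereas Myl7, the regulatory light chain of the same muscle, had no promoter peak. Gja5, a connexin gene of atrial muscle, was the other, at 94.4 and 91.2, and Bmp10 and Kcna5 had none. Both genes with a peak had a CpG ratio over 0.6 at the outermost 5′ end, and Myl7 one of 0.219. Myl4 has 8 annotated 5′ ends over 45.1 kb and Gja5 has 2 over 172.7 kb. Whether their peaks lie at 5′ ends of other genes was not checked. Transcription factor genes of heart muscle had a promoter peak at 8 of 13 in replicate 1 and 9 in replicate 2, led by Mef2a, Srf and Mef2d, with none at Hand1 and Hand2. Of the 7 genes of this list with a CpG ratio over 0.6, 4 had a promoter peak in both libraries. Hand2, at a ratio of 0.745, was among the others, and like Nkx2-5 it had no promoter peak in either library.

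**Figure D5:**
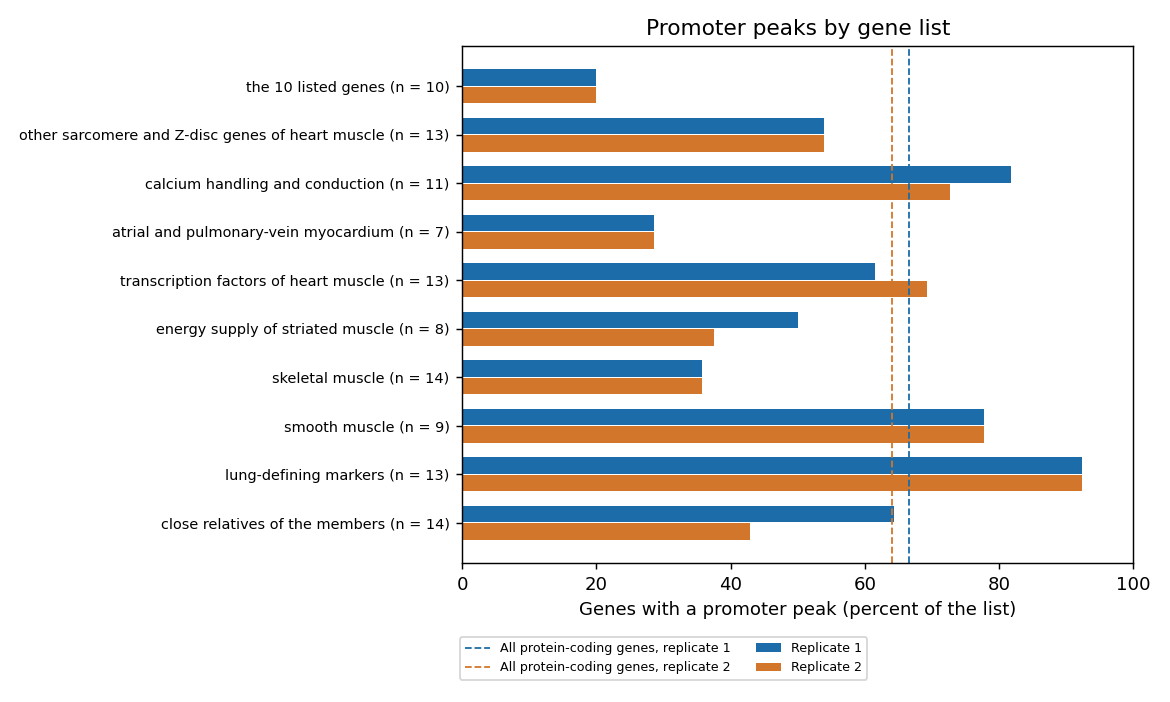
Share of genes with a promoter peak (x axis, percent) in the 10 heart genes and in each comparison list (y axis, with the number of genes), for replicate 1 (blue) and replicate 2 (orange). Dashed lines are all protein-coding genes, 66.6% and 64.1%; the 10 genes have the lowest bars, at 20%, and the lung markers the highest, at 92.3%.

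Close relatives of the 10 genes had a promoter peak at 9 of 14 in replicate 1 and 6 of 14 in replicate 2. Tnnt1, the slow skeletal troponin T gene, had one at 88.6 and 82.2. The centre of that peak fell in a Tnnt1 intron in replicate 1 and in a Tnnt1 coding exon in replicate 2. At its outermost 5′ end, Tnnt1 had a CpG ratio of 0.138, close to the 0.133 of Tnnt2, which had no promoter peak. The Tnnt1 gene neighbours Tnni3, and its promoter peak was counted among the other peaks of Tnni3. Mybpc2 (fast skeletal myosin-binding protein C) had one at 88.9 and 86.4, against none for Mybpc3 and for the slow skeletal Mybpc1, and Myh7b one at 58.4 and 55.7, against none for Myh6 and Myh7. Acta1 and Actg2, relatives of Actc1, had none, as Actc1 itself, and the smooth muscle actin gene Acta2 had 3 in replicate 1, the strongest at 29.5, and 0 in replicate 2. Mybpc1 and Acta2 were named after their values were seen. Smooth muscle genes had a promoter peak at 7 of 9 in each library, with Mylk and Myh11 among them, energy-supply genes of striated muscle at 4 and 3 of 8, and skeletal muscle genes at 5 of 14 in each. Of 13 lung-defining genes, 12 had one in both libraries, among them Foxj1, Hopx and Foxf1. The exception was Scgb1a1, the secretoglobin gene of club cells. Of these lung genes, 8 had a CpG ratio under 0.4, and 7 of those 8 had a promoter peak in both libraries, beside 1 of 8 for the heart genes of that class. The 10 genes and the lists were chosen by hand with earlier results of these data known, and the lists are small. These counts therefore describe the lists and were not tested against each other.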

How the data were processed

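DNase-seq of lung was used from 2 libraries of 1 group. The authors called each library on its own against mm10, per the listings that accompany the deposited files. Which aligner and peak caller they used is not given in the sources used here. Peak files hold the authors' signal values, on a scale the deposited files do not state. Of 2 peak files per library the one with fewer lines was used (94786 and 77403 peaks, against 145663 and 117300). Deposited footprint files carry the constant p-value threshold 0.01, and deposited per-base files list false discovery rates (q-values) up to 0.05. Read counts were not among the files, so depth, and with it the precision of each score, is unknown.

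Genes and 5′ ends came from GENCODE M21, promoter sequences from the RefSeq table (GRCm38.p6, 10 of 10 genes matched). Distances used the nearest base of a peak. Shared means an overlap of at least 1 bp. Intervals were counted in Python 3.11.15 with numpy 2.4.6 and pandas 2.3.3, and plotted with matplotlib 3.10.9. The counting was tested on simulated data. A gene of the atrial list is not reported here and was left out of its counts. The 10 genes and the lists were chosen with earlier results of these data known. Of each comparison list, up to 3 genes with a promoter peak in both libraries were eligible to be named, highest mean percentile first, and up to 2 with none, in alphabetical order. The effect of repeats and of differences between the hybrid's genome and the reference was not tested.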

Additional observations from a re-analysis of the deposited data

How the results depend on the processing

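The count of 2 genes with a promoter peak in both libraries stayed at 2 with the larger peak files, with a 500 bp window, with the outermost 5′ end only, and without replicate 1 or without replicate 2 (2 to 2), and was 3 with a 2500 bp window. It was 0 with the higher-scoring 50% of peaks, since replicate 2 then kept neither Tnni3 nor Ryr2. It was 1 (Ryr2) with RefSeq 5′ ends only, an alternative chosen after seeing the data. Of all protein-coding genes, 70.7% in replicate 1 and 68.3% in replicate 2 had a promoter peak with the larger files. The shares were 65.0% and 62.4% with 500 bp, 69.8% and 67.2% with 2500 bp, and 61.8% and 59.4% with the outermost 5′ end. With the higher-scoring 50% of peaks they were 58.8% and 56.6%. Other peaks in both libraries were found at 9 genes, at 10 with the larger peak files or a 100 kb flank, and at 2 with no flank. When a replicate was left out they were found at 9 to 10. Their totals of 89 and 67 were 46 and 36 with a 20 kb flank, 156 and 130 with 100 kb, 10 and 8 with no flank, 50 and 38 with the higher-scoring 50%, and 49 and 32 without peaks at another gene. The share of replicate 2 peaks with a partner was 87.0% with at least 50% overlap of both peaks. Score percentiles of the 2 promoter peaks rose to between 59.3 and 74.2 in the larger files. No paired analysis was possible because there was 1 group. Depth is unknown, so a promoter without a peak was not detectable here, which does not show that it is closed in every cell.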
